A study of Mus musculus with 10 samples.

Results

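Alveolar macrophages of the lung and macrophages of the small intestine were compared across every transcript that either population expressed. A transcript entered the comparison when its probe passed the array's detection test (detection p under 0.01) on at least 1 of 3 arrays, the single alveolar array and the 2 small intestinal arrays. Of 46632 probes, each reading 1 transcript, 13694 (29.4%) met this rule. They stood for 8111 of the 17711 named genes on the array when each gene was read by its brightest probe.

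The arrays belonged to a series of 10 Illumina bead arrays, on which RNA is read by short probes for single transcripts, covering macrophages of 6 mouse tissues and macrophages grown from bone marrow. All mice were male C57BL/6, an inbred strain, 8 to 10 weeks old, and all cells were untreated. Alveolar macrophages had 1 array and small intestinal macrophages had 2, so the alveolar values have no replicate. The spread was taken from the 3 groups with 2 arrays each (peritoneal, small intestinal and adipose tissue macrophages) and was assumed to hold for the alveolar array. Separate animals are not stated for the arrays of a pair, so the p-values rest on a spread that could be purely technical. The isolation and purity of the cells are not given in the sources used here. In such samples fewer cells of a type and less RNA per cell cannot be told apart.

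Alveolar macrophages live on the air side of the lung, where they take up and break down surfactant, a film rich in lipids and proteins. Their development depends on GM-CSF and TGF-beta, which induce the nuclear receptor PPAR-gamma, a regulator of lipid handling. Small intestinal macrophages live under an epithelium that faces food and microbes, are largely replaced from blood monocytes, present antigen through MHC class II, clear dying cells and make the inhibitory cytokine IL-10.

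Most identity genes of each population were higher under its own label, with levels given throughout as log2 normalised signals. These lists were drawn up with earlier results of these data known, so their counts are a description. Of 20 detected genes of an alveolar identity list, 16 were higher on the alveolar array and 0 on the intestinal arrays, with a median difference of 5.66 on the log2 scale. Car4, a carbonic anhydrase, read 11.34 on the alveolar array and 4.74 and 4.65 on the intestinal arrays, where it was not detected. Siglecf and Fabp4, which define alveolar macrophages in the mouse, were not detected on any of the 3 arrays. Of 34 detected genes of an intestinal identity list, 32 were higher on the intestinal arrays and 1 on the alveolar array. Genes common to macrophages were detected in both populations. Adgre1, which encodes the surface marker F4/80, read 12.08 on the alveolar array and 12.71 and 12.68 on the intestinal arrays. It did not pass the test (adjusted p = 0.0944), although it passed as higher in the intestine under 8 of 18 alternative settings (adjusted p from 0.00514 to 0.555). Leaving out either or both peritoneal arrays gave the same fit, as did leaving out either adipose array. Counts out of 18 settings, here and below, therefore count some fits more than once.

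The alveolar array was dimmer than the intestinal arrays, with a median raw signal of 89.83 against 156.9 and 158.7. It detected 10537 probes, against 12196 and 12231. The 10 arrays fell into a dimmer and a brighter set, and the alveolar and intestinal arrays lay in different sets. A difference between the sets and a difference between the populations therefore cannot be told apart, and no value within 1 set could be had. The peritoneal pair was the only pair with an array in each set, and a fit with the set as a block rests on it. Across tested probes, which are not independent replicates, the intestinal arrays correlated at r = 0.994 with each other and at r = 0.821 with the alveolar array.

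The populations differed in a large share of their transcripts. Of the 13694 transcripts, 3148 (23.0%) were higher in alveolar and 3550 (25.9%) were higher in small intestinal macrophages at a limma adjusted p under 0.05. Among all 16298 probes tested in the series, 21% were called higher in alveolar and 22.3% higher in intestinal macrophages, 43.3% in all. At least 2-fold differences numbered 2329 and 2621, against 15% and 16.1% of all probes tested. Of 2006 genes read by several of these probes, 79 had probes called in opposite directions. At the level of genes, 1783 (22%) were higher in alveolar and 2047 (25.2%) in intestinal macrophages, and the counts in gene lists are read against these shares. With arrays scaled to their median instead of quantile normalised, the median difference over all transcripts moved by 0.40 on the log2 scale, and the share of calls that were higher in alveolar macrophages went from 48.5% to 69.4%. With either intestinal array left out, calls among all probes tested fell from 3424 and 3629 to 2183 and 2400 at the lowest. With the array set as a block, 2328 of the 3148 and 2590 of the 3550 calls were made in the same direction and 0 in the opposite one.

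**Figure D1:**
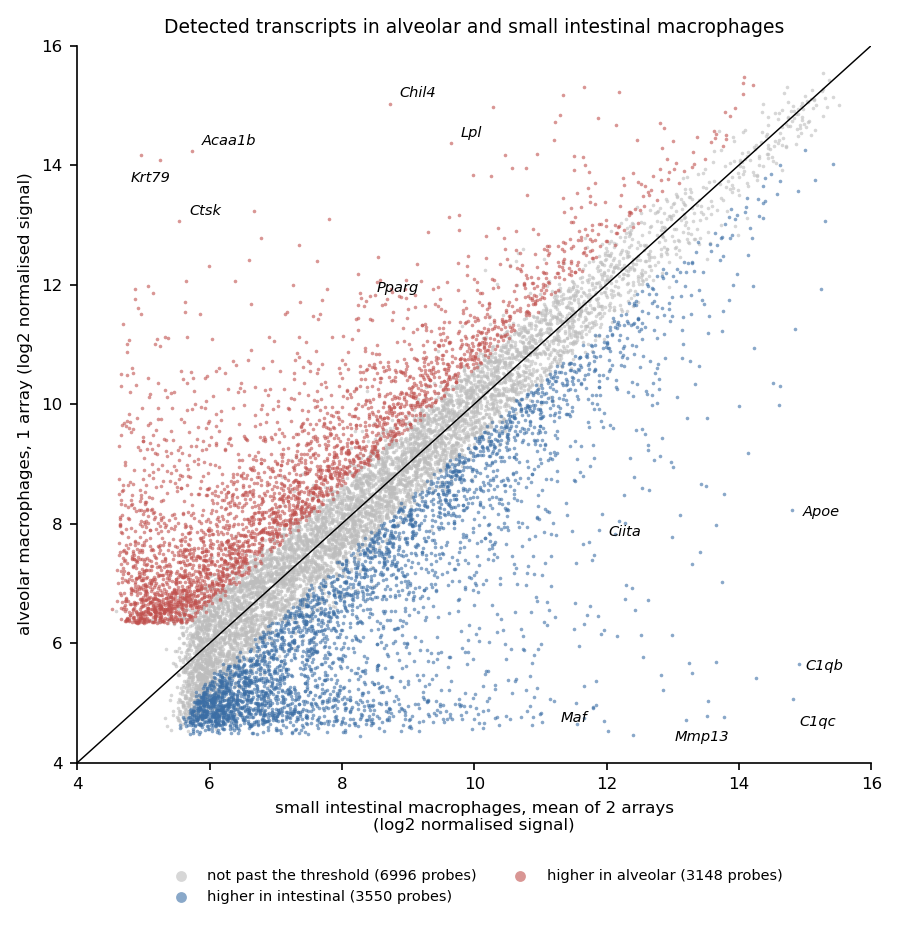
Each point is 1 of the 13694 detected probes, with its log2 normalised signal on the alveolar array (vertical axis) against the mean of the 2 small intestinal arrays (horizontal axis). Red and blue points passed the test in either direction, grey points did not, and the black line marks equal signal. Acaa1b, Krt79 and Chil4 lie far above the line, and C1qb, C1qc, Mmp13 and Apoe far below it.

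Many of the differences were a matter of detection. Of all 13694 transcripts, 959 (7.0%) were detected on the alveolar array alone and 2374 (17.3%) on both intestinal arrays alone. Of the transcripts higher in alveolar macrophages, 916 (29.1%) were detected on neither intestinal array. Of those higher in intestinal macrophages, 1702 (47.9%) were detected on both intestinal arrays and not on the alveolar array. For these a fold is a bound and is written as at least that size. It sets the detected group against the lowest normalised level among detected probes of the other array, or against the probe's own value where that was higher. That lowest level was 6.33 on the alveolar array and 5.85 on each intestinal array, so the brighter arrays detected weaker signals. The other 7 arrays of the series were then set beside the 3. Among the 1783 genes higher in alveolar macrophages, the alveolar array was above all 9 others for 812, and both intestinal arrays were below all 8 others for 494. Among the 2047 genes higher in intestinal macrophages, the alveolar array was the lowest for 763 and both intestinal arrays were the highest for 628. A single array reaches such an extreme more readily than a pair does, so these 2 counts are not compared with each other.

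The largest differences on the alveolar side were led by a peroxisomal enzyme and a keratin. Acaa1b, a thiolase that completes the breakdown of fatty acids in peroxisomes, read 14.24 on the alveolar array and 5.68 and 5.78 on the intestinal arrays, where it was not detected. It was at least 335-fold higher in alveolar macrophages (adjusted p = 2.55e-06), and the other 7 arrays ranged from 5.26 to 10.44. Krt79, a keratin, read 14.17 against 4.92 and 5.01, at least 318-fold higher (adjusted p = 2.22e-06). Ctsk, a lysosomal cysteine protease best known from bone-resorbing osteoclasts, read 13.06 against 5.34 and 5.74, at least 148-fold higher. For each of these 3 genes the alveolar value lay far from both intestinal values.

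Cd2, an adhesion molecule of T and NK cells, read 12.07 against 5.86 and 5.43 (85.6-fold) and was detected on 1 of the 2 intestinal arrays. Chil4, a secreted chitinase-like protein, read 15.03 against 8.64 and 8.80 (79.2-fold), although a close relative, Chil3, could share its signal. Mgst1, a membrane-bound glutathione transferase, read 12.31 against 6.00 and 5.99 (79.4-fold). The intestinal arrays stood apart for Mgst1, since the other 7 arrays ranged from 9.59 to 11.92. The remaining genes of the 15 largest were Cidec (at least 70.1-fold), Slpi (64.1-fold), F7 (at least 60.0-fold), Cdc42ep3 (at least 58.0-fold), Flt1 (55.9-fold), Scgb1a1 (at least 53.9-fold), Gal (at least 51.9-fold), Ms4a8a (50.9-fold) and Ffar4 (at least 50.2-fold). They include a lipid droplet protein (Cidec), a secreted protease inhibitor (Slpi), coagulation factor VII (F7), a VEGF receptor (Flt1), the neuropeptide galanin (Gal) and a receptor for long-chain fatty acids (Ffar4). Scgb1a1 is the main secretory protein of club cells of the airway epithelium. For 13 of the 15 the alveolar array was above all other arrays of the series. The exceptions were Slpi, whose signal on other arrays reached 14.84 against 12.78 on the alveolar array, and Ms4a8a (12.45 against 12.05).

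The largest differences on the intestinal side were the 3 chains of C1q, the molecule that starts the classical complement pathway and binds dying cells. C1qb read 5.65 on the alveolar array, where it was not detected, and 15.03 and 14.78 on the intestinal arrays, at least 380-fold higher (adjusted p = 2.22e-06). C1qc read 5.07 against 14.89 and 14.74 (at least 357-fold), and C1qa 5.42 against 14.33 and 14.18 (at least 243-fold). The alveolar array alone was low, since the other 7 arrays ranged from 12.67 to 15.27 over these genes. C1qb read 14.03 to 15.04 on the other arrays of the dimmer set and 14.61 to 15.06 on the other arrays of the brighter set. The genes lie side by side on chromosome 4, and the 300 bases from 250 before to 50 after the start of C1qb and C1qc (RefSeq, GRCm38.p6, minus strand, chr4:136886151-136886450 and chr4:136892865-136893164) are shown because this pair carried the largest differences; C1qa has no entry in the table used. Capitals mark TGCTGA, the core of the site bound by Maf proteins, on either strand, which 19.5% of all 32851 promoters in the table hold.
C1qb: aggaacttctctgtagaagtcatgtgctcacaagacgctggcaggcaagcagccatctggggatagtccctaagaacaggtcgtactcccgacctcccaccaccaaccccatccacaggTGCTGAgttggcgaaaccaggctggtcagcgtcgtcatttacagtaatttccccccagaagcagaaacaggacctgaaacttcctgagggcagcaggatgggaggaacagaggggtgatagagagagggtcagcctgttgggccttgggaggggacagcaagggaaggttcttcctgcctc
C1qc: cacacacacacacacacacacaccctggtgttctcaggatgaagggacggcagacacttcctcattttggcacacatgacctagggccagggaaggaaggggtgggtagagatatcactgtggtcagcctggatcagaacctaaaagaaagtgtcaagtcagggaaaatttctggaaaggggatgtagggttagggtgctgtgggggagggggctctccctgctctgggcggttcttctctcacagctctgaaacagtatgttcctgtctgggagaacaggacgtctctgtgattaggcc
C1qb holds 1 match, 131 bases before its start, and C1qc holds 0 in this window.

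Mmp13, a collagenase, read 4.76 on the alveolar array and 13.71 and 13.83 on the intestinal arrays, at least 173-fold higher (adjusted p = 2.22e-06). Cx3cr1, the receptor for fractalkine and a marker of intestinal macrophages, read 5.03 against 13.58 and 13.47 (at least 146-fold). Apoe, an apolipoprotein that carries cholesterol out of macrophages, was detected on all arrays and read 8.22 against 14.80 and 14.82 (96.2-fold). On the other 7 arrays Apoe ranged from 12.19 to 15.07, so the alveolar array was the lowest, whereas for Mmp13 the others ranged from 5.07 to 9.76 and the intestinal arrays were the highest. The other genes of the 15 largest were Dnase1l3 (at least 159-fold), Ccl12 (at least 145-fold), Stab1 (at least 124-fold), Cd72 (at least 120-fold), Gbp2b (at least 117-fold), Asb2 (106-fold), Mmp9 (at least 90.2-fold), Ocstamp (at least 74.2-fold) and Vcam1 (at least 72.4-fold). They include a secreted DNase (Dnase1l3), a chemokine for monocytes (Ccl12), a scavenger receptor (Stab1), an interferon-induced GTPase (Gbp2b) and a gelatinase (Mmp9). Of these 15 genes, 13 were not detected on the alveolar array and 9 were highest in the intestine among all groups. All 30 genes kept their direction and call with the array set as a block and with median scaling. Of 2 other detected probes of Stab1, 1 was called the same way and 0 in the opposite direction.

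**Figure D2:**
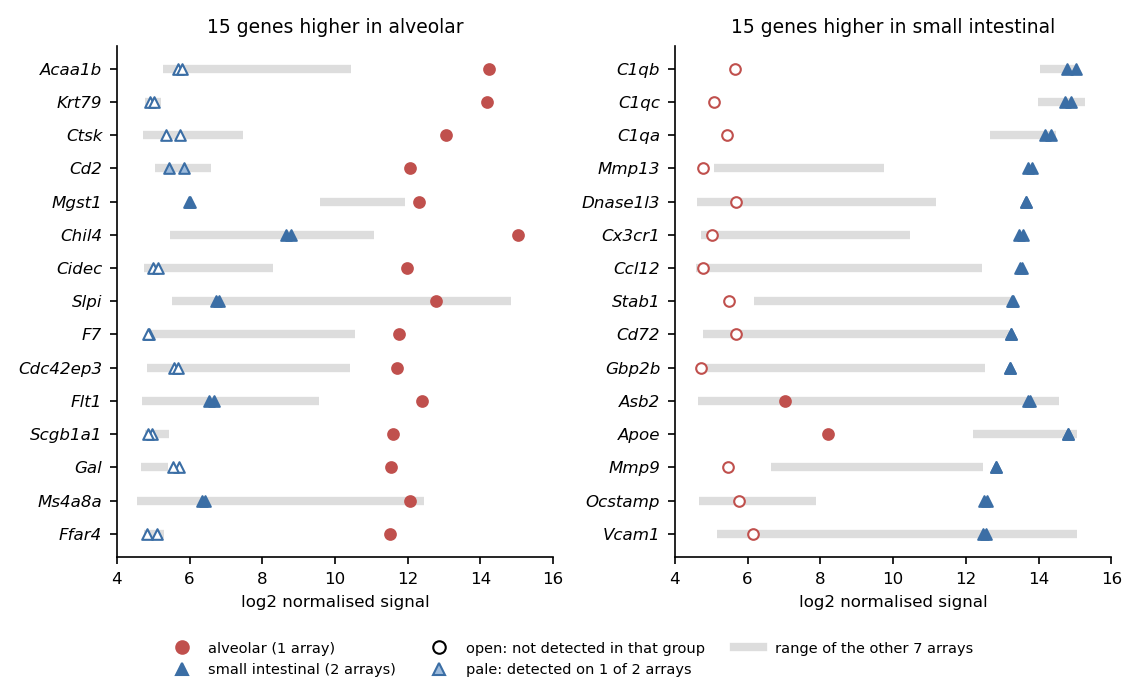
Log2 normalised signal of the 15 genes with the largest difference in each direction, on the alveolar array (circles) and the 2 small intestinal arrays (triangles); open symbols were not detected in that group, pale triangles were detected on 1 of 2 arrays, and grey bars span the other 7 arrays. C1qa, C1qb, C1qc and Apoe are low on the alveolar array alone, while Krt79 is high on it alone (14.17 against 4.78 to 5.21 on the other 7 arrays).

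Genes of fatty acid oxidation and of peroxisomes, which shorten fatty acids for energy, were higher in alveolar macrophages. Of 27 detected members, 19 were higher in alveolar, 0 in intestinal macrophages and 8 passed in neither direction. Their median difference was 1.25 on the log2 scale, against -0.03 over all transcripts tested. After Acaa1b the largest was Pdk4, a kinase that turns cells from glucose to fatty acid use, which read 9.92 on the alveolar array and 5.86 and 5.61 on the intestinal arrays (18.2-fold, adjusted p = 1.26e-05), where 1 of 2 arrays detected it. Pex11a, which drives the division of peroxisomes, read 11.50 against 7.55 and 7.77 (14.3-fold, adjusted p = 0.000298). Hadha, a subunit of the mitochondrial trifunctional protein, read 9.39 against 6.53 and 6.60 (7.08-fold). Acadl and Acot2, a dehydrogenase of long-chain fatty acids and a mitochondrial thioesterase, were not detected in the intestine and were at least 3.51-fold and 2.98-fold higher. All of these were higher on the alveolar array than on both intestinal arrays. Cpt1a, which admits fatty acids into mitochondria, did not pass the test, at 5.53 against 6.36 and 5.81 (adjusted p = 0.245). For 13 of the 19 genes the alveolar array was the highest of all 10, against 812 of the 1783 genes higher in alveolar macrophages as a whole. Promoters of the 17 of these 19 genes with an entry were searched for AGGNCA repeated after any 1 base, on either strand. No promoter held these letters, which are like those bound by PPAR receptors. As only 0.451% of all genes in the RefSeq table hold them, 0 among 17 genes is not informative.

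Lipid uptake, storage and efflux genes were also mostly higher in alveolar macrophages (21 of 37 detected members, against 7 higher in the intestine, median difference 0.93). Lpl, the lipase that frees fatty acids from lipoproteins, read 14.37 on the alveolar array and 9.63 and 9.66 on the intestinal arrays (26.4-fold, adjusted p = 7.14e-06). The intestinal arrays were the ones that stood apart for Lpl, since the other 7 arrays ranged from 12.12 to 14.32. Abcd2, a peroxisomal transporter of very long fatty acids, read 10.22 against 5.89 and 5.64 (21.9-fold), with detection on 1 of the 2 intestinal arrays. Cidec, which enlarges lipid droplets, read 11.98 against 4.99 and 5.14, and Ffar4 11.50 against 5.10 and 4.84; neither was detected in the intestine. Angptl4, Plin2 and Abcg1 were named after their values were seen. Angptl4, a secreted inhibitor of Lpl, read 12.46 against 8.71 and 8.38 (15.1-fold). Plin2, a lipid droplet coat protein, read 13.94 against 10.79 and 10.76 (9.00-fold), and Abcg1, a cholesterol exporter, read 14.72 against 11.21 and 11.22 (11.3-fold). Besides Apoe, the intestinal side held Pla2g2d, a secreted phospholipase, at 9.38 and 9.57 against 4.98 (at least 8.83-fold).

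Cholesterol and fatty acid synthesis was divided, with 9 of 28 detected members higher in alveolar and 5 in intestinal macrophages (median 0.41); with median scaling the counts were 9 and 2, and without the first or the second intestinal array 4 and 3 or 3 and 3. Mvd, an enzyme of the mevalonate pathway, read 8.98 against 7.15 and 7.01 (3.72-fold higher in alveolar). Fads1, a fatty acid desaturase, read 9.10 against 12.29 and 12.42 (9.54-fold higher in intestinal). The respiratory chain differed little. Of 66 detected subunits 13 were higher in alveolar and 4 in intestinal macrophages, with a median of 0.27 and differences from -1.20 to 1.04. These counts moved to 22 and 2 with median scaling and to 6 and 3 with the array set as a block. Without the first or the second intestinal array they were 1 and 1 or 2 and 1, with either adipose array left out 7 were higher in alveolar macrophages, and with either peritoneal array left out 30. Among glycolysis genes, 5 of 22 were higher in alveolar (3 without the first intestinal array) and 9 in intestinal macrophages. Pfkp, the platelet form of phosphofructokinase, read 10.56 against 6.22 and 5.96 (22.0-fold higher in alveolar), while Pfkm, the muscle form, was not detected on the alveolar array and was at least 7.56-fold higher in the intestine (5.29 against 9.28 and 9.23). The 2 forms of the same enzyme thus differed in opposite directions.

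**Figure D3:**
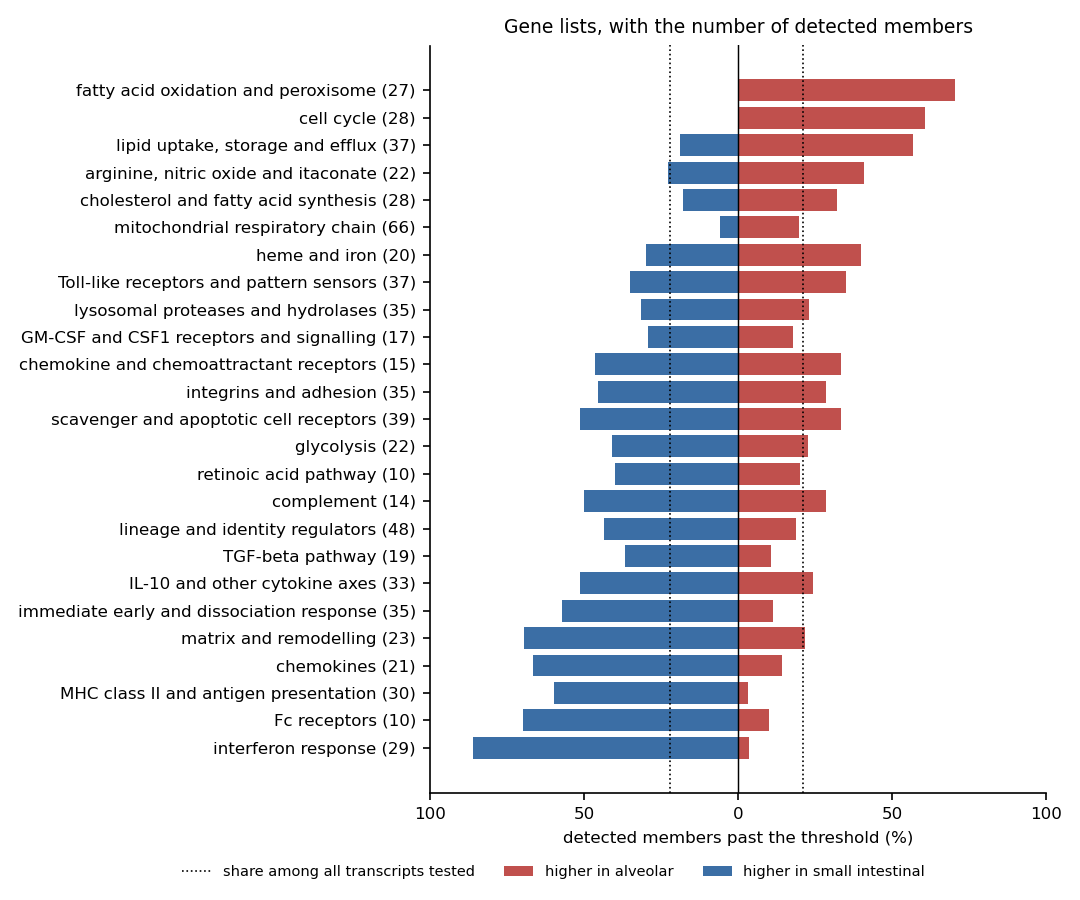
Share of the detected members of each gene list (their number in brackets) that were higher in alveolar (red, to the right) or in small intestinal macrophages (blue, to the left). Dotted lines mark the shares among all 16298 probes tested, 21% and 22.3%. Fatty acid oxidation (19 of 27 higher in alveolar) and the interferon response (25 of 29 higher in intestinal) lie far outside these lines, as does the cell cycle (17 of 28 higher in alveolar).

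Of 48 detected transcription regulators, 9 were higher in alveolar and 21 in intestinal macrophages, with a median of -0.66. The first share is below the 22% and the second above the 25.2% of all detected genes. Pparg, which encodes PPAR-gamma, read 11.72 on the alveolar array and 8.27 and 8.46 on the intestinal arrays, 10.2-fold higher (adjusted p = 7.71e-05, 95% interval 2.76 to 3.95 on the log2 scale). It was detected on all 3 arrays, and splenic macrophages came close to the alveolar level, at 11.32. Id1, an inhibitor of helix-loop-helix factors, read 9.38 against 6.33 and 5.48 (11.2-fold), and Vdr, the vitamin D receptor, 9.00 against 6.36 and 5.64 (7.99-fold); each was detected on 1 of the 2 intestinal arrays. Egr2, a zinc finger factor, read 10.06 against 7.51 and 7.64 (5.62-fold), above all other arrays of the series. Tcf7l2, a Wnt pathway factor, was 5.35-fold and Cebpb, a C/EBP factor of myeloid cells, 2.73-fold higher in alveolar macrophages.

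Maf, a factor of resident macrophages in many tissues, was the regulator with the largest difference. It read 5.03 on the alveolar array, where it was not detected, and 11.15 and 11.26 on the intestinal arrays, at least 29.2-fold higher (adjusted p = 6.22e-06). The other 7 arrays ranged from 8.29 to 12.30, so the alveolar array was the lowest. Hes1, a target of Notch signalling, read 7.82 against 12.16 and 12.10 (19.8-fold), the highest in the intestine. Smad3, which carries TGF-beta signals, read 6.40 against 10.39 and 10.40 (16-fold), and Irf4 5.38 against 9.25 and 9.07 (at least 7.09-fold). Batf3 and Irf8, known from dendritic cell development, were 8.26-fold and 3.37-fold higher in the intestine, and Ahrr, the repressor of the aryl hydrocarbon receptor, at least 4.6-fold.

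Several regulators common to macrophages did not pass the test. Spi1, which encodes the lineage factor PU.1, read 9.63 against 10.54 and 10.43 (adjusted p = 0.0602, 95% interval -1.57 to -0.12). It was called higher in the intestine under 8 of 18 alternative settings (adjusted p from 0.00238 to 0.759). Cebpa read 12.51 against 12.66 and 12.64, with an interval from -0.90 to 0.62, and Nr1h3, which encodes the oxysterol receptor LXR-alpha, 10.63 against 10.72 and 10.56 (interval -0.53 to 0.50). Gata6, Spic and Bhlhe41 were not detected on the 3 arrays.

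GM-CSF receptor chains did not pass the test. Csf2ra, the specific alpha chain, read 12.69 on the alveolar array and 13.16 and 13.32 on the intestinal arrays (adjusted p = 0.0797), and Csf2rb, the shared signalling chain, 7.66 against 6.91 and 7.57 (adjusted p = 0.566, interval -0.86 to 1.71). With the array set as a block, Csf2rb was higher in alveolar macrophages (adjusted p = 0.0142), and Csf2ra was called higher in the intestine under 8 of 18 alternatives (adjusted p from 0.0239 to 0.549). Downstream of these receptors, Cish, a feedback inhibitor induced by STAT5, was 7.79-fold higher in alveolar macrophages, at 10.59 against 7.75 and 7.51 (adjusted p = 8.04e-05). Socs3, a feedback inhibitor induced by STAT3, was 5.75-fold higher in the intestine, at 10.16 against 12.67 and 12.69. Bcl2, which protects cells from death, read 6.50 against 9.67 and 9.55 (8.63-fold higher in the intestine). In all, 3 of 17 detected members of this list were higher in alveolar and 5 in intestinal macrophages, shares near those of all detected genes (22% and 25.2%). Without the second intestinal array the counts were 1 and 4, and with either peritoneal array left out 5 and 7.

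TGF-beta receptors did not pass the test. Tgfbr2 read 12.17 against 12.62 and 12.44 (adjusted p = 0.222, interval -0.88 to 0.16) and Tgfbr1 12.77 against 13.45 and 13.39 (adjusted p = 0.124). The ligand gene Tgfb1 read 10.63 against 11.39 and 11.27 (adjusted p = 0.058). Tgfb1 and Tgfbr1 were called higher in the intestine under 9 and 4 of 18 alternatives. Apart from Smad3, members higher in the intestine were Eng, an accessory receptor (3.71-fold), Ltbp3, which stores latent TGF-beta in the matrix (at least 2.65-fold), and Tgfbi, a secreted target protein (2.04-fold). Tgfbi lost its call with median scaling (adjusted p = 0.114) and without the second intestinal array. Of 19 detected members 7 were higher in intestinal and 2 in alveolar macrophages, with 4 and 2 under median scaling. A single member was called higher in alveolar macrophages when any 1 intestinal or adipose array was left out.

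Interferon response genes were higher in intestinal macrophages almost throughout. Of 29 detected members 25 were higher in intestinal and 1 in alveolar macrophages, with a median difference of -2.58. Gbp3, a GTPase induced by interferons, read 6.97 on the alveolar array and 12.30 and 12.29 on the intestinal arrays (40.2-fold, adjusted p = 6.08e-06). Ifitm3, a membrane protein that blocks viral entry, read 8.66 against 13.35 and 13.50 (27.2-fold), and Cxcl9, a chemokine for T cells, 7.77 against 13.05 and 12.92 (37.2-fold). Rsad2, the antiviral enzyme viperin, read 5.48 against 10.16 and 10.17 (at least 14.3-fold), Ifitm6 4.62 against 10.35 and 10.39 (at least 16.4-fold) and Ifit2 4.81 against 9.63 and 9.64 (at least 9.86-fold). Those last 3 genes were not detected on the alveolar array. Irf7, the regulator that amplifies the type I interferon response, read 5.62 against 8.53 and 8.53 (at least 4.59-fold). The exception was Ifi205, an interferon-induced DNA-binding protein, at 9.04 against 4.64 and 4.79 (at least 9.11-fold higher in alveolar), which was named after its values were seen. Ifit, Ifitm, Gbp and Oas genes have near-identical relatives that may share signal.

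The alveolar array was the lowest of all 10 arrays for 22 of these 25 genes, against 763 of the 2047 genes higher in the intestine as a whole. Both intestinal arrays were the highest for 2 of the 25, against 628 of the 2047. Gbp3 ranged from 9.52 to 11.88 on the other arrays of the dimmer set and from 9.96 to 11.79 on those of the brighter set. With the array set as a block 24 members were higher in the intestine, and with median scaling 23.

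Promoters of the group were searched on either strand for GAAA repeated after any 2 bases, the core of the element through which interferon-activated factors bind, with overlapping matches marked as 1 run of capitals. Gbp3, Rsad2 and Ifitm3 held it within the 300 bases of the RefSeq table (GRCm38.p6), and they are shown as examples of regulatory sequence in genes that differed together. They lie at chr3:142559794-142560093 on the plus strand (the first of 2 listed starts), chr12:26456403-26456702 on the minus strand and chr7:141010695-141010994 on the minus strand.
Gbp3: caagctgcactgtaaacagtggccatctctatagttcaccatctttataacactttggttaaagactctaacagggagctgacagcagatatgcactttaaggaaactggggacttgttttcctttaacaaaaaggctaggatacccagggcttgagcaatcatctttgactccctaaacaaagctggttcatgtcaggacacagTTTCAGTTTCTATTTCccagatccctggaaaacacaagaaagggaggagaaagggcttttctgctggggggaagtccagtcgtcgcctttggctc
Rsad2: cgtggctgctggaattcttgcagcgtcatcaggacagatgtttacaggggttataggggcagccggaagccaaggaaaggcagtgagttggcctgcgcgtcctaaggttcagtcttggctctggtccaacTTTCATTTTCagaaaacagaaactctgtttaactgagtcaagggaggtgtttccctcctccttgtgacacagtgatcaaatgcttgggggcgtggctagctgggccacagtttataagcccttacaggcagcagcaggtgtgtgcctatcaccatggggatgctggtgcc
Ifitm3: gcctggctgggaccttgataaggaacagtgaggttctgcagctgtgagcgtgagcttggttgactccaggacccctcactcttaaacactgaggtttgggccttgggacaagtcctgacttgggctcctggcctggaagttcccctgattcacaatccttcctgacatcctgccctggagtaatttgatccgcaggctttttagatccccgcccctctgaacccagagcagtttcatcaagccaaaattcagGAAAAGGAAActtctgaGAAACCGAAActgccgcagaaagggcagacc
The matches start 45 and 39 bases before the start of Gbp3, 120 bases before that of Rsad2, and 2 and 19 bases after that of Ifitm3. Of the 21 members higher in the intestine that have an entry, 11 (52.4%) hold these letters, against 3.99% of all 27025 genes in the table. The single member higher in alveolar macrophages, Ifi205, holds them too, and 0 of 2 members with no call do. The list was drawn up from interferon response genes, so a share above that of all genes does not bear on alveolar against intestinal macrophages. Members outside the 21 are too few to compare with them. A match is a string of letters and not a measured binding site.

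MHC class II and antigen presentation genes were higher in the intestine as well, for 18 of 30 detected members against 1, with a median of -1.16. Ciita, the master regulator of class II genes, read 7.89 on the alveolar array and 11.78 and 11.99 on the intestinal arrays (16-fold, adjusted p = 6.44e-05). H2-Eb1, a class II beta chain, read 13.07 against 15.38 and 15.23 (4.71-fold), and Cd86, a co-stimulator of T cells, 10.52 against 12.77 and 12.70 (4.63-fold). Lgmn, a lysosomal protease that trims antigens, was 5.69-fold and Tap1, part of the transporter that supplies peptides for class I, 4.77-fold higher. H2-Ab1, a class II beta chain, did not pass the test, at 14.30 against 14.74 and 14.69 (adjusted p = 0.331), but passed as higher in the intestine under 5 of 18 alternatives, the lowest adjusted p being 0.00493 with the array set as a block. B2m, the light chain of class I, read 14.65 against 14.72 and 14.77 (adjusted p = 0.742). Both intestinal arrays were the highest of all 10 for 14 of these 18 genes, against 628 of the 2047 genes higher in the intestine as a whole. The alveolar array was the lowest for 2 of the 18, against 763 of the 2047. H2 genes are close relatives, and part of a signal may come from a neighbour.

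**Figure D4:**
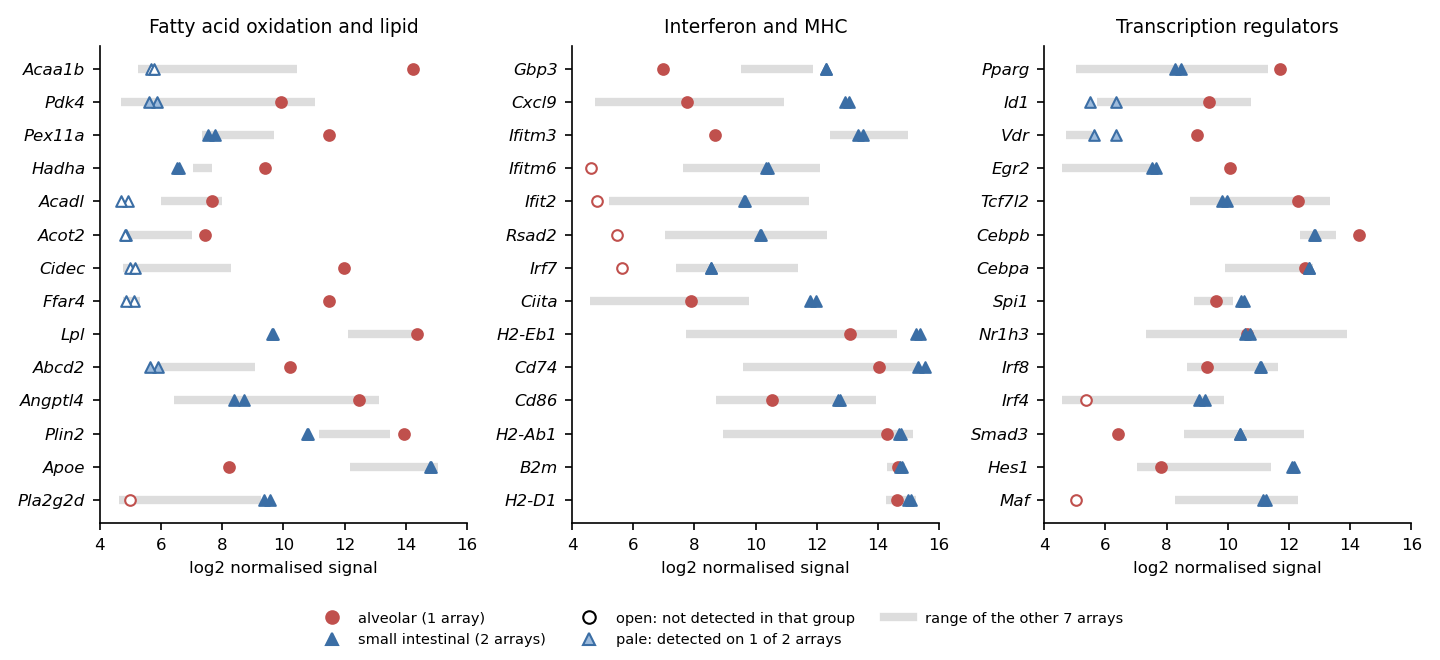
Log2 normalised signal of named genes of fatty acid and lipid handling (left), interferon response and MHC (middle) and transcription regulators (right), with circles for the alveolar array, triangles for the 2 intestinal arrays, open symbols for genes not detected in that group, pale triangles for detection on 1 of 2 arrays and grey bars for the range of the other 7 arrays. Alveolar circles lie left of the grey bar for Gbp3 (6.97 against a lowest value of 9.52), and intestinal triangles lie right of it for Ciita (11.78 and 11.99 against a highest value of 9.79).

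Complement genes other than C1q followed the same side for C2 (5.90 against 10.96 and 10.96, at least 24.6-fold) and C6 (5.90 against 10.50 and 10.60, at least 18.6-fold). In all 7 of 14 detected members were higher in intestinal and 4 in alveolar macrophages. Fc receptors, which bind antibody, were higher in the intestine for 7 of 10 detected members. Fcgr1, the high-affinity receptor for IgG, read 8.10 against 10.91 and 10.98 (7.18-fold), and Fcgr2b, the inhibitory receptor, 10.34 against 12.38 and 12.53 (4.33-fold). Fcrls, an Fc receptor-like scavenger receptor, was not detected on the alveolar array and read 12.38 and 12.41 in the intestine (at least 66.8-fold).

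Scavenger and apoptotic cell receptors were divided between the populations, with 13 of 39 higher in alveolar (8 with either intestinal array left out) and 20 in intestinal macrophages. Marco, a scavenger receptor for bacteria and particles, read 10.52 against 5.00 and 4.70 and was not detected in the intestine (at least 25.5-fold, adjusted p = 1.05e-05). Gas6, a bridge between dying cells and receptors of the TAM family, read 4.93 against 11.68 and 11.91 (at least 44.1-fold), and Mgl2, a galactose-type lectin, 6.45 against 11.92 and 11.80 (42.7-fold). Mertk, a TAM receptor, was 1.93-fold higher in alveolar macrophages (12.19 against 11.39 and 11.10, adjusted p = 0.0243). That call was lost without any 1 of the intestinal or adipose arrays (adjusted p up to 0.12). Mrc1, the mannose receptor CD206, did not pass the test, at 13.68 against 13.70 and 13.72 (interval -0.55 to 0.49).

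Pattern sensors passed as often in one direction as in the other, with 13 of 37 detected members on each side. With either intestinal array left out the counts were 7 and 8, and with either adipose array left out 8 were higher in alveolar macrophages. Tlr2, a receptor for bacterial lipoproteins, read 14.14 against 11.65 and 11.64 (5.65-fold higher in alveolar, adjusted p = 6.89e-05), above all other arrays, and Tlr4, the receptor for endotoxin, 10.00 against 8.38 and 8.31 (3.15-fold). Tlr8, an RNA sensor, was detected only on the alveolar array of the 3 (at least 5.20-fold). Ly86, also called MD-1, read 8.95 against 13.04 and 12.97 (16.6-fold higher in the intestine), and Tlr1 and Tlr11 were detected on the intestinal arrays and not on the alveolar array (at least 3.19-fold and 3.94-fold). Unc93b1, which escorts nucleic acid sensors to endosomes, was 5.03-fold higher in the intestine.

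Of 33 detected genes of IL-10 and other cytokine pathways, 8 were higher in alveolar and 17 in intestinal macrophages. Il1a read 10.53 on the alveolar array and 6.15 and 6.32 on the intestinal arrays (19.6-fold, adjusted p = 1.14e-05), and Il1rn, the natural antagonist of the IL-1 receptor, 10.36 against 5.36 and 5.97 (25.9-fold), with detection on 1 of the 2 intestinal arrays. Il1r2, the decoy receptor for IL-1, was opposite, at 5.03 against 10.28 and 10.11 (at least 14.5-fold higher in the intestine), where no other array of the series exceeded 4.92. Il10 read 4.76, not detected, against 9.56 and 9.69 (at least 9.81-fold, adjusted p = 8.46e-06). Pdgfa and Pdgfb, growth factors for fibroblasts and smooth muscle, were at least 10.8-fold and 16.5-fold higher in the intestine. Il10ra, the receptor chain for IL-10, was 5.19-fold higher in the intestine and Tnf 2.36-fold higher in alveolar macrophages; both were named after their values were seen.

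Chemokine genes were mostly higher in the intestine (14 of 21, against 3, median -2.07). Besides Ccl12, Ccl7 read 6.92 against 12.43 and 12.35 (44.3-fold), and Pf4, Ccl24 and Ccl8 were not detected on the alveolar array (at least 15.7-fold, 13.9-fold and 13.1-fold). Ccl7 attracts monocytes and Ccl24 attracts eosinophils. Ccl17, which attracts T cells, was among the 3 that were higher in alveolar macrophages, at 10.23 against 8.00 and 8.15 (4.45-fold). Among chemoattractant receptors, Cxcr1, a receptor for neutrophil chemokines, read 10.31 against 4.65 and 4.68 (at least 21.9-fold higher in alveolar), and no other array exceeded 4.99. Fpr2, a receptor for formylated bacterial peptides, read 14.18 against 10.94 and 10.95 (9.40-fold). Ccr2, a chemokine receptor of blood monocytes, was detected on the intestinal arrays alone, at 7.52 and 7.62 (at least 2.35-fold), and was named after its values were seen.

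Matrix remodelling genes were higher in the intestine for 16 of 23 detected members and in alveolar macrophages for 5 (median -1.54). Mmp2, a gelatinase, read 6.12 against 12.24 and 12.07 (at least 56.4-fold) and Mmp14, a membrane-bound activator of Mmp2, 8.15 against 13.09 and 13.14 (31.3-fold). Adamdec1, a metalloprotease known from intestinal macrophages, was at least 20.6-fold and Col14a1, a collagen, at least 6.38-fold higher. Fn1, fibronectin, was on the other side, at 9.40 against 5.48 and 5.42 (at least 11.7-fold higher in alveolar). Tgm2, a protein cross-linking enzyme, read 13.89 against 11.71 and 11.76 (4.46-fold higher in alveolar). Among integrins and adhesion molecules 10 of 35 were higher in alveolar and 16 in intestinal macrophages, with Cd9, a tetraspanin, at 14.84 against 11.21 and 11.37 (11.7-fold) and Itga9, an integrin chain, at 4.91 against 10.10 and 9.96 (at least 13-fold) on either side.

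Lysosomal genes showed no common direction, since 8 of 35 were higher in alveolar and 11 in intestinal macrophages, 10 and 7 with median scaling, and 6 and 7 without the second intestinal array. Ctsd, the aspartic protease cathepsin D, read 14.43 against 11.24 and 11.17 (9.35-fold higher in alveolar, adjusted p = 2.38e-05). The intestinal arrays were the low ones for Ctsd, as the other 7 arrays ranged from 13.33 to 14.12. In iron handling, Slc40a1, the iron exporter ferroportin, was 12.5-fold and Slc11a1, the phagosomal metal transporter NRAMP1, 13.5-fold higher in the intestine, at 9.76 against 13.55 and 13.49 for Slc11a1. Alas1, which starts heme synthesis, read 13.45 against 11.35 and 11.33 (4.33-fold higher in alveolar). Slc7a2, a transporter of arginine, was detected on the alveolar array and not in the intestine (9.84 against 4.80 and 4.77, at least 15.8-fold), while Arg1 and Nos2, which use arginine, were not detected on the 3 arrays.

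Cell cycle genes were higher in alveolar macrophages for 17 of 28 detected members and in intestinal macrophages for 0, with a median of 1.22. Cdk1, the kinase that starts mitosis, read 8.35 against 6.36 and 6.18 (4.21-fold, adjusted p = 0.000332), and Rrm2, a subunit of ribonucleotide reductase, 8.35 against 6.49 and 6.39 (3.75-fold). Tk1, thymidine kinase, read 8.75 against 6.70 and 6.54 (4.39-fold, adjusted p = 0.0334). With the array set as a block 10 members were called and the median was 0.44, and Tk1 was no longer called (adjusted p = 0.509). Without the first intestinal array 11 members were called. Tk1 lost its call without any 1 of the intestinal or adipose arrays too. For Tk1 the other arrays of the dimmer set read 7.91 to 9.21 and those of the brighter set 5.16 to 6.21, so that its level followed the array set; the part of the set in the difference was not tested. Immediate early genes, which cell isolation can induce, went the other way, with 20 of 35 higher in the intestine and 4 in alveolar macrophages (13 and 5 with median scaling, 13 and 3 without the first intestinal array). Atf3, a stress-induced factor, read 9.56 against 12.36 and 12.52 (7.34-fold), and Ppp1r15a, a stress-induced phosphatase subunit, 10.26 against 12.80 and 12.78 (5.79-fold). The part of this response in the intestinal differences was not tested.

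Markers of other cell types showed no direction common to all lists, and some lists leaned clearly to the intestine or to the alveolar array. Of 14 detected lung epithelial genes 6 were higher in alveolar and 5 in intestinal macrophages, with Sftpc and Sftpd, surfactant proteins of the alveolar epithelium, at 9.68 and 9.49 on the alveolar array and not detected in the intestine (at least 14.3-fold and 12.4-fold). Sftpb, Sftpa1 and Nkx2-1 were not detected on the 3 arrays. The summed signal of the list was 14145 on the alveolar array and 21249 and 22521 on the intestinal arrays. The median level of its detected members went the other way, at 9.19 against 7.27 and 7.25. A summed signal, here and below, mostly follows the brightest members of a list. Of 18 detected intestinal epithelial genes 13 were higher in the intestine, with Spink1 at 8.01 and 8.08 and Rbp2 at 7.91 and 7.86, both undetected on the alveolar array, while Epcam, Fabp2, Muc2 and Lgr5 were not detected on the 3 arrays. The summed signal of that list was 3201 against 4442 and 4316, and its median level was 5.01 against 7.38 and 7.24. Krt19, a keratin of simple epithelia in the same list, was the only member on the alveolar side (11 against 4.71 and 4.80). It is in the alveolar identity list too and adds to the alveolar sum.

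Fibroblast and smooth muscle genes were higher in the intestine for 10 of 16 detected members, with a summed signal of 1552 on the alveolar array and 8075 and 8016 on the intestinal arrays. Actg2, an actin of enteric smooth muscle, read 4.76 against 10.34 and 10.36 (at least 16.2-fold), and Mylk, myosin light chain kinase, 6.43 against 11.18 and 11.27 (27.8-fold), whereas Col1a1, Col1a2, Col3a1 and Des were not detected. Endothelial genes were higher in alveolar macrophages for 12 of 20 detected members and in the intestine for 4 (summed signal 12353 against 8552 and 9357). With the array set as a block the counts were 9 and 4, and their median difference went from 1.26 to 0.61. For 10 of the 12, neither population lay beyond all other arrays of the series. Tek, Tie1 and Erg were not detected, and Flt1 is in this list too. Dendritic cell genes were higher in the intestine for 11 of 19 (summed signal 40079 against 48492 and 50437), with Flt3 and Xcr1 not detected. B and plasma cell genes were higher in the intestine for 8 of 16 (5 without the first intestinal array) and in alveolar macrophages for 3 (summed signal 17574 against 15123 and 15251), with Ms4a1, Pax5 and Jchain not detected. Median levels of the B and plasma cell genes went the other way from their sums, at 6.49 against 7.52 and 7.40. Neutrophil genes passed 4 and 4 times in 10 (summed signal 3990 against 10173 and 10049), with S100a9, Mpo and Elane not detected. Their median levels were 7.62 against 7.55 and 7.69, and the list holds Mmp9 (5.47 against 12.83 and 12.83). T and NK cell genes passed 3 and 4 times in 14 (summed signal 3373 against 4435 and 4587). Monocyte genes passed 4 and 4 times in 14, and 4 and 7 times with either peritoneal array left out (summed signal 9726 against 19206 and 18294). Median levels of the monocyte genes were closer, at 7.59 against 7.99 and 8.07. The monocyte list holds Cx3cr1 (5.03 against 13.58 and 13.47), named above as a marker of intestinal macrophages. Of 4 detected erythrocyte and platelet genes 1 was higher in either direction (summed signal 10869 against 4089 and 4071). The haemoglobin genes Hba-a1 (12.24 against 10.22 and 10.10) and Hbb-bs (12.53 against 10.58 and 10.75) did not pass the test (adjusted p = 0.168 and 0.121). Each passed as higher in alveolar macrophages under 6 of 18 alternatives, but with the array set as a block Hba-a1 was higher in the intestine (adjusted p = 0.0049). Of 4 detected nerve and glia genes 2 were higher in alveolar and 1 in intestinal macrophages (summed signal 3462 against 272 and 289). Gal, which is in the alveolar identity list too, was the brightest on the alveolar array. Sox10, S100b and Gfap were not detected. Of 4 detected eosinophil, basophil and mast cell genes 1 was higher in alveolar and 2 in intestinal macrophages (summed signal 437 against 984 and 974), with Cpa3, Epx and Fcer1a not detected. The part of other cell types in the differences was not tested.

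Of the 9318 transcripts detected on all 3 arrays, 3716 had a 95% interval of the difference within -1 to 1 on the log2 scale. The 10 brightest of their genes were Actb, Rps9, Rps14, Psap, Eef1a1, Fau, Rpl23, Rpl37, H2-D1 and Rps21, of which 5 encode ribosomal proteins by name, and their differences lay between -0.39 and 0.27. Their raw signals lay between 12325 and 35848 on the alveolar array and between 43298 and 53552 on the intestinal arrays before normalisation, near the top of each array's range. Actb alone of these was called under an alternative, as higher in alveolar macrophages with median scaling (1.37, adjusted p = 0.0173) and, at the threshold itself, in the authors' series values. Only 2 of 3 other detected Actb probes likewise did not pass in the main fit. Psap, the precursor of the lysosomal saposins, read 15.07 on the alveolar array and 15.06 and 14.99 on the intestinal arrays, and H2-D1, an MHC class I heavy chain, 14.63 against 14.97 and 15.07. Of the genes common to macrophages, 4 of 23 were higher in alveolar and 8 in intestinal macrophages, with 5 and 5 under median scaling and 2 and 4 without the first intestinal array. Aif1, which encodes the calcium-binding protein IBA1, was the largest of these, at 9.03 against 13 and 12.94 (15.3-fold higher in the intestine, adjusted p = 1.71e-05). Fcer1g, the signalling chain of Fc receptors, read 14.45 against 14.69 and 14.65 and did not pass (adjusted p = 0.378).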

How the data were processed

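RNA of macrophages of 6 mouse tissues and of bone marrow-derived macrophages was measured on 10 Illumina bead arrays. The authors deposited a table of non-normalised signal intensity per probe, with a detection p-value for each probe and array, per the file headers. The authors also deposited series values, used here on the log2 scale as an alternative; the steps behind them are not given in the sources used here. Here the deposited intensities were corrected with the detection p-values, an offset of 16 was added, and the arrays were quantile normalised and log2 transformed (neqc of limma 3.58.1, R 4.3.3). Differences are alveolar minus intestinal. The 16298 probes detected on 1 or more of the 10 arrays (detection p under 0.01) were tested with limma's moderated two-sided test and Benjamini-Hochberg adjustment over all of them, on 3 residual degrees of freedom. The number of arrays limits the precision.

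A gene was read by its probe with the highest mean over all arrays. Named genes were the 15 with the largest difference in each direction, up to 6 called members with the largest differences of each list described, members said not to pass, the 10 brightest genes with an interval within -1 to 1, and any regulator, receptor pathway or pan-macrophage member; others are said to have been named after their values were seen. The members and lists were chosen with earlier results of these data known. Csf1r, Cd68 and Chil3 were not analysed here. The fit was tested on simulated data. Promoters were taken from RefSeq (GRCm38.p6).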

Additional observations from a re-analysis of the deposited data

How the results depend on the processing

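Over 18 alternative settings, 133 of the 136 named genes that passed did so in the same direction under every setting that tested them. Mertk, Tgfbi and Tk1 lost their call under at least 1. Most named genes were chosen for large called differences, so this count does not measure how stable calls are in general. With the array set as a block, 2328 of the 3148 and 2590 of the 3550 calls among detected transcripts were kept. The 18 settings overlap, since leaving out either or both peritoneal arrays gives the same fit, as does leaving out either adipose array. Of the 26 named genes that did not pass, 10 passed under at least 1 alternative. The only reversal among named genes was Hba-a1, at -1.25 with the array set as a block. Among all probes tested, 3424 were higher in alveolar macrophages, with 2183 to 4775 when 1 of the intestinal, peritoneal or adipose arrays was left out in turn, and 3629 were higher in intestinal macrophages, with 2400 to 4975. Leaving out an intestinal array leaves 1 array in each group. Median scaling gave 2176 higher in intestinal macrophages. Counts of at least 2-fold differences (2437 and 2628) were 1253 and 1305 with no background correction, 4084 and 1676 with median scaling, and 1138 and 1190 in the authors' series values. The cause of these shifts was not tested. No paired analysis was possible because there was 1 alveolar array and no pairing of arrays across tissues is stated.

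The comparison rests on 1 alveolar array, and that array and the intestinal arrays lie in different brightness sets, so the set and the tissue cannot be told apart. The block fit rests on the peritoneal pair. Signals near background give only bounds.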
